A study of Mus musculus with 50 samples.

Results

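The genes described here are 9 genes of glycogen metabolism in muscle, taken by symbol from the 23880 genes of the deposited tables: Gyg, Ugp2, Gys1 and Gbe1 of synthesis, Pygm, Phka1 and Phkg1 of breakdown, and Ppp1r3a and Ppp1r3c, which target a phosphatase to glycogen. All 9 passed the filter on low counts and were among the 12586 genes tested. RNA came from the gastrocnemius of 50 male wild-type C57BL/6JRj mice, an inbred strain, aged 8, 18, 22 or 24 months (8 mice per age) or 26 or 28 months (9 mice per age), with 1 strand-specific polyA library per mouse. All mice were caged singly and fed the purified diet AIN-93M. Mice of 8 and 18 months were moved to it at least 2 months before the end, and mice of 22 to 28 months from 18 months of age or shortly after, so the oldest mice differed from those of 8 months in when they began the diet, and from those of 22 months in how long they had eaten it. Mice with visible illness or tumors had been left out, so the oldest groups were survivors.

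Glycogen is the branched glucose polymer from which a contracting fiber draws fuel. Glycogenin (Gyg) starts the polymer on itself, UDP-glucose pyrophosphorylase (Ugp2) makes the sugar donor, glycogen synthase (Gys1) lengthens the chains and the branching enzyme (Gbe1) adds the branch points. Muscle glycogen phosphorylase (Pygm) releases glucose units once phosphorylase kinase has phosphorylated it. That kinase responds to calcium and to adrenaline, with Phka1 coding for its muscle regulatory subunit and Phkg1 for its muscle catalytic subunit. Ppp1r3a and Ppp1r3c bring protein phosphatase to the glycogen particle, where it activates the synthase and shuts off phosphorylase.

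The stretches before the starts of 4 genes are shown because RNA levels of these genes rose and fell together, or in opposite directions, among mice of the same age (see the relations between genes further on). They are 250 bases each, up to the RefSeq start, in the direction of the gene (RefSeq, GRCm38.p6), and capitals mark the motifs found.
Pygm (chr19:6384158-6384407, + strand): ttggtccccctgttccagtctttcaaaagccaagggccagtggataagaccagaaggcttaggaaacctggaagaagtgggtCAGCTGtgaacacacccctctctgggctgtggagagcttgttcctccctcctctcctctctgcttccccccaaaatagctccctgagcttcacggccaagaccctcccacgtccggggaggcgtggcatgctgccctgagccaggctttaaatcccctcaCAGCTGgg
Phka1 (chrX:102644247-102644496, - strand): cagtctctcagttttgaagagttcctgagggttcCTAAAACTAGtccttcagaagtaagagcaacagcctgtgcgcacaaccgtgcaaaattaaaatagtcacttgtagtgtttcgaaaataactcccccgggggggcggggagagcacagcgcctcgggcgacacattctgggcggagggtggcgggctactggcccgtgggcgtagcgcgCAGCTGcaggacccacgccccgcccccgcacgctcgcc
Phkg1 (chr5:129879089-129879338, - strand): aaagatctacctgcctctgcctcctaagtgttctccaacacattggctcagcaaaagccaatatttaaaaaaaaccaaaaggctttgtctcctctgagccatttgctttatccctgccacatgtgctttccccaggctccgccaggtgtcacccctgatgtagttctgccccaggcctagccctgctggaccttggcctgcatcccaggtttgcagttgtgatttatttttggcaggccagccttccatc
Gbe1 (chr16:70313699-70313948, + strand): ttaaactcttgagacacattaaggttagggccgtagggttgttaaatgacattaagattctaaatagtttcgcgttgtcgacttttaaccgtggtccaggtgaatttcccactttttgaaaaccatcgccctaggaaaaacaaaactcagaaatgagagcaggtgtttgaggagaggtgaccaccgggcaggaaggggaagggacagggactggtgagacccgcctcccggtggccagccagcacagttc
In the GENCODE vM21 annotation the stretches of Phka1 and Gbe1 overlap no gene, that of Phkg1 lies in an intron of a longer transcript of the gene, and the last 9 bases of that of Pygm belong to its first exon. The letters searched, on both strands, were the E-box CAGCTG, which MyoD family factors bind, the E-box CACGTG, the half-site AAGGTCA of estrogen-related receptors, and CTANNNNTAG. The last is a looser form of the core bound by MEF2 factors, which has A or T at the 4 middle places. The matches did not overlap. CAGCTG stood at -168 to -163 and at -8 to -3 of Pygm and at -38 to -33 of Phka1, counted back from the start. Phka1 also held CTANNNNTAG at -216 to -207, with a C among the 4 middle bases, so it is not the stricter MEF2 core. The stretches of Phkg1 and Gbe1 held none of the 4 motifs. Over the 10 stretches of the 9 genes (Ugp2 has 2), CAGCTG was found in 6, CTANNNNTAG in 2 (Phka1 and Ppp1r3a), CACGTG in 1 (Ppp1r3c) and AAGGTCA in 0. Not all of these are upstream of the gene in GENCODE vM21. In the stretch of Gyg 201 of 250 bases lay in exons, with a start codon. Those of Gys1 and Ppp1r3c and 1 of the 2 of Ugp2 held 90, 49 and 58 exon bases. Of the matches to CTANNNNTAG, that of Ppp1r3a had A or T at all 4 middle places. Of 32851 stretches of the same length, 13.0% held CAGCTG, 3.20% CTANNNNTAG, 6.02% CACGTG and 4.08% AAGGTCA. Among the 12572 of tested genes these shares were 12.3%, 2.85%, 8.19% and 2.88%. A match is a description of the letters and was not measured as a binding site.

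Library totals lay between 13607229 and 21267375 counts, and the member with the fewest reads, Gbe1, had 608 to 3734 counts per mouse, so that the spread between mice and not counting set the precision. Levels below are in CPM, counts scaled to a common library size with TMM factors, or in TPM, which is also divided by transcript length. The tissue label matched the markers: summed TPM of 8 genes of fast IIB fibers was 115977 to 138206 at 8 months and 107559 to 157062 at 28 months, and that of 4 hepatocyte markers was at most 1.79 at both ages. Between these ages 7 of 8 tested genes of denervated or regenerating fibers rose (summed TPM of the 9 genes in the table from 125 to 198 at 8 months, 235 to 621 at 28 months) and 6 of 9 macrophage genes rose (183 to 322 against 287 to 774). In the same contrast 5 of 7 fibroblast genes fell (789 to 1147 against 634 to 857). Of 8 adipocyte genes 5 fell and 1 rose (633 to 1074 against 567 to 1177). Of the fast IIB genes 2 rose and 1 fell, and of 2 genes of IIX and IIA fibers 1 rose (589 to 1763 against 990 to 2817). Of 7 tested slow fiber genes 0 passed, with a median log2 fold change of 0.55. Of all genes 21% rose and 18.7% fell. Between 28 and 22 months 6 of 8 genes of denervated or regenerating fibers and 0 of 9 macrophage genes rose. Of the 2 genes of IIX and IIA fibers 1 rose, beside 16.2% of all genes. In that contrast 4 of 7 fibroblast genes fell, and 2 of 8 adipocyte genes fell and 1 rose, where 11.5% of all genes fell. The part of these shifts in the results below was not tested, and in bulk RNA fewer cells of a type and less RNA per cell cannot be told apart. Replicate 2 of 28 months stood apart, with a median correlation of 0.962 with the other mice of its age (0.973 to 0.984 for the others) and the highest macrophage sum. Values without it are therefore added for some of the results that lean on it, not for all.

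Per length, Pygm stood far above the other members. Mean TPM over the 50 mice was 6976 ± 711 (SD) for Pygm, the 16th highest of all genes, then 899.7 ± 212 for Ugp2, 589.7 ± 263 for Ppp1r3c, 511 ± 81.7 for Gyg, 422 ± 68.2 for Phka1, 362 ± 49.1 for Phkg1, 355 ± 55.0 for Gys1, 125 ± 29.6 for Ppp1r3a and 74.8 ± 31.7 for Gbe1. Some neighbors in this order did not differ beyond the spread between mice: Phkg1 lay above Gys1 in 31 of 50 mice and Ppp1r3c above Gyg in 32, while Pygm lay above Ugp2 and Gys1 above Ppp1r3a in all 50. Gbe1 lay below Ppp1r3a in 48 of 50 mice.

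Between 28 and 8 months-old mice, 3 of the 9 genes rose (Gbe1, Ppp1r3a and Gys1) and 1 fell (Phkg1). The other 5 did not pass FDR 0.01. The test was edgeR's quasi-likelihood test with Benjamini-Hochberg adjustment over all 12586 genes. In this contrast 39.6% of all genes passed, 21% upward and 18.7% downward, so 4 of 9 members is near the share among all genes. The median log2 fold change of the members was 0.22 and that of all genes 0.01. With upper-quartile factors the split of all called genes was 2249 higher and 2760 lower, against 2639 and 2349 here, and limma on log2(TPM + 1) gave 2802 and 1758. Between 28 and 22 months, 2 members rose (Gbe1 and Ppp1r3a) and 1 fell (Phkg1), where 27.7% of all genes passed. Both contrasts use the 28 months-old mice.

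**Figure D1:**
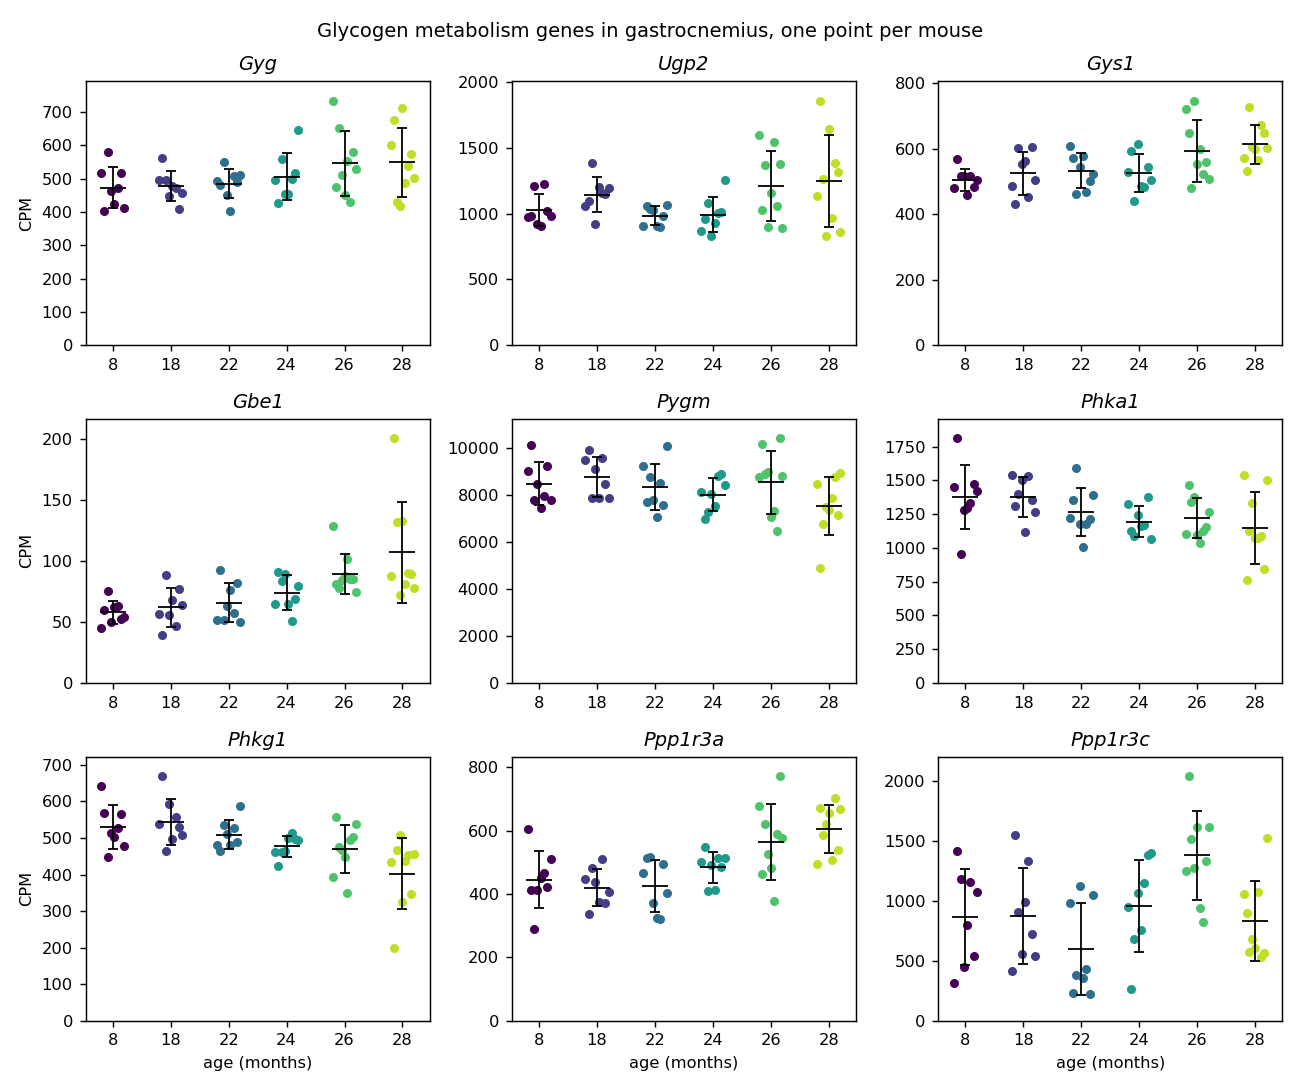
CPM of each gene (y axis, from 0) against age in months (x axis), with 1 point per mouse, and the mean and SD in black. Gbe1 climbs from a mean of 57.8 to 107, Phkg1 falls from 530.4 to 403, and Ppp1r3c spreads widely at every age.

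Gbe1 (ENSMUSG00000022707, chr16:70313949-70569716, + strand, GRCm38) showed the largest change of the set. Its lowest, median and highest CPM were 45.4, 56.8 and 75.8 at 8 months, 39.3, 60.3 and 88.4 at 18 months, and 50.03, 60.5 and 92.3 at 22 months. They were 50.8, 74.0 and 91.3 at 24 months, 74.4, 85.3 and 128 at 26 months, and 72.1, 89.1 and 200.4 at 28 months. At 26 months and at 28 months 8 of 9 mice lay above the highest mouse of 8 months, and the groups overlapped by a single mouse each time. The log2 fold change was 0.89 (SE 0.16, adjusted p = 2.19e-05) from 8 to 28 months and 0.70 (SE 0.16, adjusted p = 0.000736) from 22 to 28 months by edgeR's quasi-likelihood test, 1.85-fold and 1.63-fold. Without replicate 2 of 28 months, the highest mouse of all, these were 0.72 and 0.53, and both still passed (adjusted p = 0.000148 and 0.00573). When the fit was restricted to the 2 ages compared, the second did not pass (adjusted p = 0.0116).

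Gys1 (ENSMUSG00000003865, chr7:45434844-45456619, + strand), the enzyme that lengthens glycogen chains in muscle, rose by a small step. The lowest, median and highest CPM were 458, 509.7 and 569 at 8 months, 432, 528 and 603.5 at 18 months, and 462, 534 and 608 at 22 months. At 24 months they were 439, 518 and 615, at 26 months 481, 558 and 747, and at 28 months 532, 602 and 726. At 28 months 7 of 9 mice lay above the highest mouse of 8 months. The log2 fold change was 0.28 (SE 0.08, adjusted p = 0.00367 by edgeR) against 8 months and 0.21 against 22 months, which did not pass (adjusted p = 0.0371). The first lost its call without replicate 5 of 8 months (0.26, adjusted p = 0.0105) and with upper-quartile factors (0.23, adjusted p = 0.0186).

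Gyg (ENSMUSG00000019528, chr3:20122084-20155317, - strand) and Ugp2 (ENSMUSG00000001891, chr11:21321138-21371201, - strand), which act before the synthase, did not pass at FDR 0.01. The median CPM of Gyg lay between 467 and 539 at the 6 ages, with a range of 402 to 581 at 8 months and 417 to 712 at 28 months. The log2 difference was 0.22 (95% interval 0.02 to 0.41, adjusted p = 0.0633 by edgeR). Ugp2 ranged from 907 to 1226 CPM at 8 months, from 897 to 1064 at 22 months and from 828 to 1860 at 28 months, and the 28 months-old mice reached both above and below every mouse of 8 months. The log2 difference of Ugp2 was 0.28 (0.04 to 0.53, adjusted p = 0.0457) against 8 months and 0.35 (0.10 to 0.59, adjusted p = 0.0192) against 22 months by the same test. The second passed when replicate 4, 6 or 9 of 28 months was left out (adjusted p = 0.00510, 0.00940 and 0.00708) and fell to 0.25 (adjusted p = 0.0869) without replicate 2. Without that mouse the first was 0.19 (adjusted p = 0.175 by edgeR).

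Of the breakdown genes, Phkg1 (ENSMUSG00000025537, chr5:129863421-129898549, - strand) fell. Its lowest, median and highest CPM were 448, 519.7 and 643 at 8 months, 465, 533 and 669 at 18 months, and 465, 499.9 and 589 at 22 months. They were 423, 479.8 and 513 at 24 months, 349.9, 475 and 558 at 26 months, and 198, 438 and 508 at 28 months. At 28 months 5 of 9 mice lay below the lowest mouse of 8 months. The SD was 60.9 CPM at 8 months and 96.0 at 28 months, or 61.8 without replicate 2. The log2 fold change was -0.40 (SE 0.10, adjusted p = 0.00149) against 8 months, 0.759-fold, and -0.34 (SE 0.10, adjusted p = 0.00837) against 22 months by edgeR's quasi-likelihood test. Without replicate 2 of 28 months, the lowest mouse of all, they were -0.31 (adjusted p = 0.0022) and -0.26 (adjusted p = 0.0153). The call against 22 months was also lost without replicate 5 or 8 of 28 months or replicate 3, 4, 6 or 8 of 22 months (adjusted p = 0.0115 to 0.0220), and neither call held when the fit was restricted to the 2 ages compared (adjusted p = 0.0269 and 0.0511).

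Pygm (ENSMUSG00000032648, chr19:6384399-6398459, + strand) and Phka1 (ENSMUSG00000034055, chrX:102513975-102644246, - strand) lay lower at 28 months by amounts that did not pass. Pygm ranged from 7431 to 10122 CPM at 8 months (median 8211) and from 4902 to 8919 at 28 months (median 7499), and 4 of 9 mice lay below the lowest of 8 months. The log2 difference was -0.17 (95% interval -0.36 to 0.02, adjusted p = 0.117 by edgeR). Phka1 ranged from 958 to 1811 CPM at 8 months (median 1377) and from 765 to 1539 at 28 months (median 1085), with a log2 difference of -0.26 (-0.48 to -0.05, adjusted p = 0.0358). It passed when replicate 3 of 8 months, the lowest mouse of that age, was left out (-0.32, adjusted p = 0.00962).

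Of the 2 targeting subunits 1 rose. Ppp1r3a (ENSMUSG00000042717, chr6:14713977-14755274, - strand), the subunit typical of striated muscle, had a lowest, median and highest CPM of 289.5, 436 and 605 at 8 months, 337, 423 and 510.1 at 18 months, and 320.3, 435 and 517 at 22 months. They were 408, 498 and 547 at 24 months, 377, 576 and 772 at 26 months, and 496, 622 and 702 at 28 months. At 28 months 5 of 9 mice lay above the highest mouse of 8 months and 0 below the lowest. The log2 fold change was 0.44 (SE 0.12, adjusted p = 0.00168) against 8 months and 0.50 (SE 0.12, adjusted p = 0.000789) against 22 months by edgeR, and both passed with each mouse left out in turn.

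Ppp1r3c (ENSMUSG00000067279, chr19:36731731-36736653, - strand), the subunit known as protein targeting to glycogen, varied most among mice of one age. The lowest, median and highest CPM were 313, 934 and 1412 at 8 months, 411, 814 and 1544 at 18 months, and 225, 407 and 1121 at 22 months. They were 261, 1005 and 1394 at 24 months, 819, 1334 and 2037 at 26 months, and 529, 678 and 1523 at 28 months. At 22 months 5 mice lay between 225 and 431 CPM and 3 between 983 and 1121. The CV was 27.0% to 64.3% at the 6 ages, and the within-age SD of log2 CPM, 0.70, was larger than in 98.5% of the 1438 genes with a mean of at least 100 CPM (median 0.20). The log2 difference between 28 and 8 months was -0.05 with a 95% interval of -0.69 to 0.58 (adjusted p = 0.898 by edgeR). The level at 26 months was the highest mean (1377 ± 371 CPM, SD, n = 9), and neither its difference from 8 months (0.67, adjusted p = 0.0933) nor the step to 28 months (-0.73, adjusted p = 0.348) passed.

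Calls in the set were made at 26 and 28 months. Of the 9 genes, 1 passed between 26 and 8 months (Gbe1, 0.63, SE 0.16, adjusted p = 0.00308), where 18.4% of all genes did. Between 24 and 8 months 0 of 9 passed by edgeR or by DESeq2, against 0.612% of all genes. At an unadjusted p under 0.05 stood 1 of 9 (Gbe1, 0.36), below the 19.2% of all genes in that contrast. Between 22 and 8 months and between 18 and 8 months 0 of 9 passed by either tool, against 0.0397% and 0.0715% of all genes. In these contrasts 0 of 9 had an unadjusted p under 0.05, against 9.01% and 3.65% of all genes. These contrasts share the 8 months-old mice. Between consecutive ages 0 of 9 passed by either tool. The share of all genes was 0.00795% between 22 and 18 months and 0% in each of the later steps, where 478, 2202 and 1609 genes had an unadjusted p under 0.05 and DESeq2 called 0, 14 and 0. Of the members, 0, 1, 2 and 3 had an unadjusted p under 0.05 in the 4 steps in order of age, against 4.15%, 3.8%, 17.5% and 12.8% of all genes. In a test for any difference among the 6 ages, 35.4% of all genes and 3 of 9 members passed: Gbe1 (adjusted p = 3.24e-05), Ppp1r3a (0.000235) and Phkg1 (0.00615), while Gys1 stood at 0.0123.

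**Figure D2:**
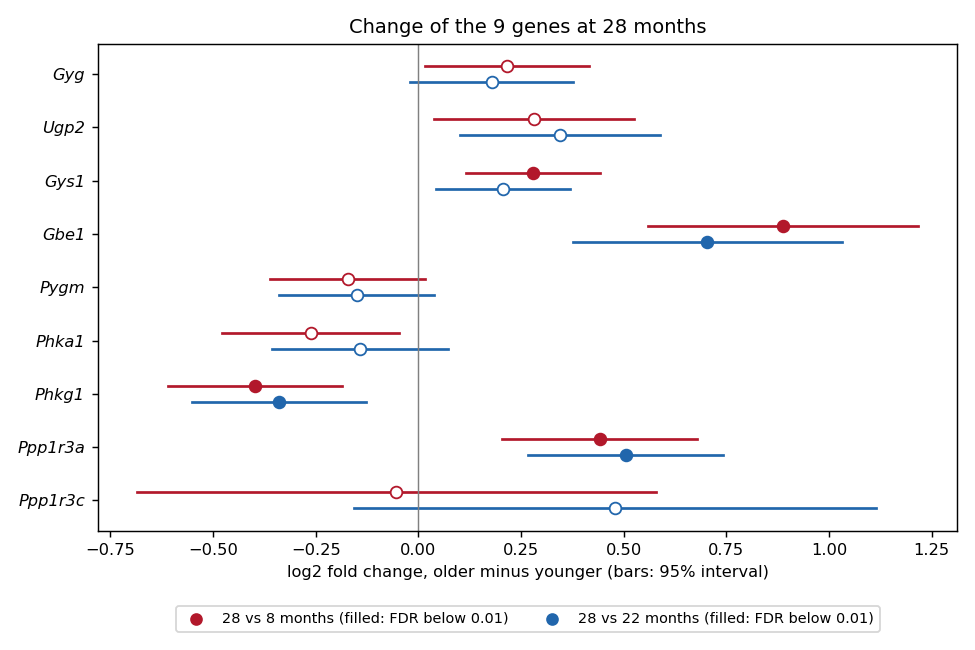
Log2 fold change (x axis) of the 9 genes (y axis) at 28 months against 8 months (red) and against 22 months (blue), with 95% intervals as bars and filled points for genes past FDR 0.01. Gbe1 lies at 0.89 and 0.70, Phkg1 at -0.40 and -0.34, and the intervals of Ppp1r3c are the widest.

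None of the 9 genes separated 28 from 8 months completely in CPM; the ranges of 2.46% of all genes did so upward and of 2.24% downward. The ratio of 2 genes within a library is free of the scaling between libraries. The TPM ratio of Pygm to Gys1 was 20.3 to 25.5 at 8 months (median 22.3), 15.99 to 25.9 at 22 months (20.0) and 12.0 to 19.3 at 28 months (16.1), so all 9 mice of 28 months lay below the lowest mouse of 8 months. Mice below the lowest of 8 months were also found at each age between, 3 of 8 at 18 months, 5 of 8 at 22 months, 3 of 8 at 24 months and 5 of 9 at 26 months, and at 18 months 3 of 8 lay above the highest. The TPM ratio of Gbe1 to Phkg1 was 0.106 to 0.265 at 8 months (median 0.139), 0.175 to 0.433 at 26 months (0.223) and 0.172 to 1.35 at 28 months (0.265), with 5 of 9 mice of 28 months above the highest of 8 months. The value of 1.35 was replicate 2 of 28 months, and the highest of the others was 0.532. Of the 4 ratios computed, that of Ppp1r3a to Ppp1r3c stayed within the range of 8 months (0.0957 to 0.755) in all 9 mice of 28 months (0.171 to 0.518). That of Ugp2 to Phkg1 was 1.66 to 3.05 at 8 months and 1.73 to 10.1 at 28 months (up to 5.42 without replicate 2), with 4 of 9 mice above. The ratios are descriptions and were not tested. How many ratios of other genes separate these ages was not computed, and the shares above are for single genes.

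Mouse by mouse, the 3 breakdown genes moved together and Gbe1 moved against them, also among mice of the same age. Relations were computed on deviations of log2 CPM from the mean of each age, over 50 mice and all 36 pairs, with a two-sided permutation test within ages (100000 permutations) adjusted over the pairs. Of the 36 pairs 12 passed an adjusted p of 0.05, 7 positive and 5 negative. The share among pairs of all tested genes was not computed, so the count cannot be called particular to these genes. Gbe1 and Phkg1 had a Pearson's r of -0.743 and a Spearman's rho of -0.671 (adjusted permutation p = 0.00018 and 9e-05, from raw values of 1e-05, the smallest that these permutations can give). The value of r was -0.65 without the 2 mice farthest from the median of Gbe1, -0.659 without replicate 2 of 28 months, -0.639 on log2(TPM + 1), where 4 other pairs were larger in size, -0.792 in the 16 mice of 8 and 18 months and -0.738 in the 34 mice of 22 to 28 months, and r was negative at each of the 6 ages (-0.886 to -0.699).

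Pygm and Phkg1 rose and fell together (r = 0.683, rho = 0.664, adjusted permutation p = 0.00024 and 9e-05), as did Pygm and Phka1 (r = 0.651, rho = 0.635, adjusted permutation p = 0.00018 and 9e-05). The regulatory and the catalytic subunit of phosphorylase kinase, Phka1 and Phkg1, had r = 0.618 and rho = 0.553 (adjusted permutation p = 0.000257 and 0.00096). Without the 2 farthest mice these 3 values of r were 0.622, 0.59 and 0.526, and each was positive at all 6 ages. In the 16 younger and 34 older mice the values of r were 0.779 and 0.664, 0.663 and 0.653, and 0.498 and 0.661, in the same order.

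**Figure D3:**
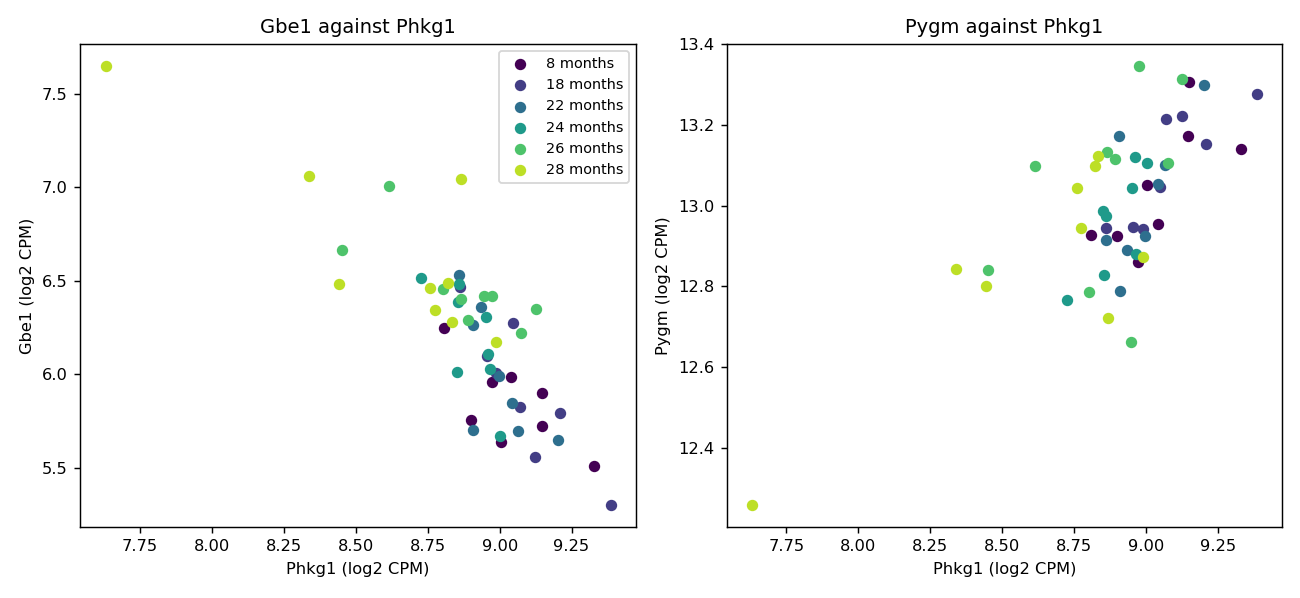
Log2 CPM of Gbe1 (left, y axis) and Pygm (right, y axis) against log2 CPM of Phkg1 (x axes), with 1 point per mouse colored by age. Gbe1 is high where Phkg1 is low, Pygm is high where Phkg1 is high, and replicate 2 of 28 months lies alone at the far left of both.

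Gbe1 also ran against Pygm (r = -0.643, rho = -0.64, adjusted permutation p = 0.00024 and 9e-05) and against Phka1 (r = -0.479, rho = -0.45, adjusted permutation p = 0.00742 and 0.0106). It ran with Ugp2 (r = 0.582, rho = 0.493, adjusted permutation p = 0.00024 and 0.00293) and with Gys1 (r = 0.361, rho = 0.417, adjusted permutation p = 0.0341 and 0.0136). Without the 2 farthest mice these 4 values of r were -0.534, -0.399, 0.461 and 0.346. The relation with Gys1 was 0.751 in the 16 younger mice and 0.223 in the 34 older ones. Ugp2 ran against Phkg1 (r = -0.622, rho = -0.455, adjusted permutation p = 0.00054 and 0.0136; r = -0.482 without the 2 farthest mice) and against Phka1 (r = -0.505, rho = -0.415, adjusted permutation p = 0.00664 and 0.022; -0.394), and with Gyg (r = 0.646, rho = 0.615, adjusted permutation p = 0.00024 and 0.00036; 0.577). For Gyg and Ugp2 r was 0.359 in the younger and 0.707 in the older mice. The relations of Ugp2 with Phkg1 and with Phka1 were positive at 2 and 1 of the 6 ages.

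The targeting subunits entered few of these relations. No pair with Ppp1r3a passed, and its r with Gbe1, which rises over the same ages, was 0.0145 within ages (rho = 0.0219, adjusted permutation p = 0.943 and 0.935) although it was 0.448 over the ages together. Of the pairs with Ppp1r3c, that with Pygm passed (r = 0.337, rho = 0.383, adjusted permutation p = 0.0341 and 0.022; 0.381 without the 2 farthest mice). It was -0.0103 in the younger and 0.463 in the older mice, and 0.245 with log2(TPM + 1) in place of CPM, where it did not pass (adjusted permutation p = 0.159). On that scale the relations of Phka1 with Gbe1 (-0.226) and Ugp2 (-0.317) did not pass either (adjusted permutation p = 0.222 and 0.0966), and those of Gyg with Gbe1 (0.405) and Phkg1 (-0.739) and of Phka1 with Ppp1r3a (0.429) did (0.0436, 0.000216 and 0.018).

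**Figure D4:**
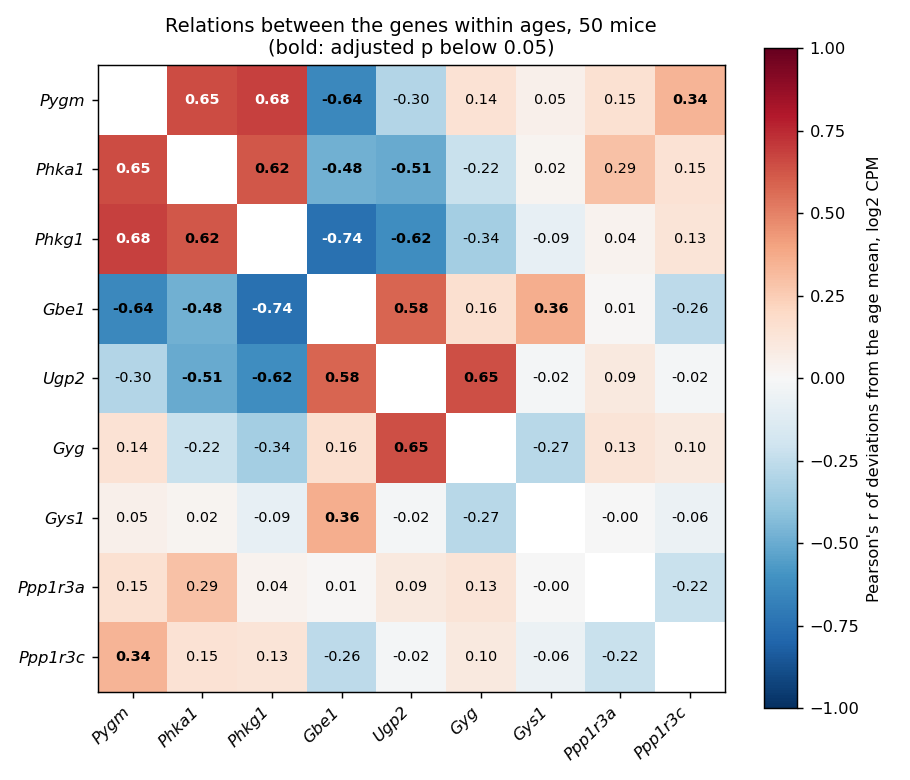
Pearson's r of log2 CPM deviations from the age mean for each pair of the 9 genes over 50 mice, from -1 (blue) to 1 (red), with values past an adjusted p of 0.05 in bold. Pygm, Phka1 and Phkg1 form a positive block at the top left (0.62 to 0.68), and Gbe1 is negative with all of them (-0.74 to -0.48).

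For each member the other tested genes with the highest r of log2 CPM over all 50 mice were listed, as a description. For Phkg1 they were Calm3 (r = 0.927, rho = 0.802), a calmodulin gene, and Ak1 (0.922, 0.779), the adenylate kinase of muscle cytosol. For Pygm they were Pkm (0.789, 0.75) and Pfkm (0.75, 0.678), enzymes of glycolysis, and for Phka1 they were Prkab2 (0.813, 0.71), a subunit of AMP-activated kinase, and Phkb (0.791, 0.773), which codes for another subunit of phosphorylase kinase. Gbe1 was nearest to Pde8a (0.86, 0.863), a cyclic AMP phosphodiesterase, and Coro6 (0.837, 0.804), a coronin, and Gys1 to Actn2 (0.749, 0.746), an actinin of the Z-disc, and Cmtm4 (0.746, 0.787). Gyg was nearest to Eif1 (0.926, 0.917), a translation initiation factor, and Rab12 (0.906, 0.878), and Ugp2 to Atp6v1h (0.804, 0.684), a subunit of the vacuolar proton pump, and Utp11 (0.796, 0.637). Ppp1r3a was nearest to Epm2aip1 (0.862, 0.829), named for binding the glycogen phosphatase laforin, and Ube3a (0.859, 0.818), a ubiquitin ligase. Ppp1r3c was nearest to Fam107a (0.793, 0.758) and Med26 (0.765, 0.654), a Mediator subunit. Within ages these values of r lay between 0.639 (Gys1 with Actn2) and 0.92 (Gyg with Eif1).

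Other genes of the pathway were followed in 7 lists of 59 genes, of which 53 were tested. Between 28 and 8 months 10 rose and 15 fell, with a median log2 fold change of -0.09, beside the 39.6% of all genes given above. Of all genes 21% rose and 18.7% fell, and the counts of each list below are to be read beside these shares. The largest fall was in phosphoglucomutase, which links glucose 6-phosphate to glucose 1-phosphate on the way into and out of glycogen and is listed as Pgm2 in the deposited tables (ENSMUSG00000025791, chr4:99929414-99987294) and as Pgm1 in GENCODE vM21. It ranged from 1518 to 2004 CPM at 8 months and from 316 to 1381 at 28 months, without overlap. The log2 fold change was -0.94 (SE 0.16, adjusted p = 6.81e-06 by edgeR). It was the only one of 3 tested genes of the synthesis list to pass.

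In the breakdown list of 9 tested genes 5 fell and 1 rose, with a median log2 fold change of -0.41. The largest falls were in Calm2, coding for calmodulin, which is also a subunit of phosphorylase kinase (160 to 291 CPM at 8 months, 64.2 to 206 at 28 months, log2 fold change -0.89, adjusted p = 8.84e-05 by edgeR), and in Pygl, the liver phosphorylase (mean CPM of 5.43 and 3.33, -0.69, adjusted p = 0.00626). Phkg2, the kinase subunit of liver and testis, rose from a mean of 7.66 to 9.43 CPM (0.30, adjusted p = 0.00883). The calls of Pygl and Phkg2 were lost in 7 and 12 of the 17 fits that left out 1 mouse, and the authors split reads shared between transcripts evenly, so values of low genes beside an abundant relative such as Pygm are uncertain. The beta subunit gene Phkb did not pass (-0.16, adjusted p = 0.0978 by edgeR). With the fit restricted to the 2 ages 1 gene of the list fell and 0 rose.

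Among 7 tested genes of the phosphatase and its other partners, 2 rose and 1 fell, beside 21% and 18.7% of all genes. Ppp1r1a, an inhibitor of protein phosphatase, rose from 18.4 to 36.6 CPM at 8 months to 36.5 to 83.1 at 28 months (log2 fold change 1.12, SE 0.17, adjusted p = 8.53e-07 by edgeR). The catalytic subunits went apart, Ppp1cb upward (0.33, adjusted p = 0.000697) and Ppp1cc downward (-0.39, adjusted p = 6.69e-05). Of 3 tested genes of lysosomal breakdown and quality control, Gaa, the lysosomal glucosidase, rose (0.42, adjusted p = 0.000326).

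Of 14 tested kinase genes acting on the pathway 4 rose and 1 fell, beside 21% and 18.7% of all genes. Akt1 rose from 52.6 to 69.7 CPM at 8 months to 62.2 to 155 at 28 months (0.74, adjusted p = 2.44e-05 by edgeR), and Gsk3b, a kinase that inhibits glycogen synthase, from 72.9 to 112 to 105 to 276 (0.73, adjusted p = 4.24e-05). Without replicate 2 of 28 months Gsk3b stood at 0.57. Gsk3a, which also inhibits the synthase, did not pass (mean CPM of 108 at 8 months and 101 at 28 months). Prkab2, a subunit that binds AMP-activated kinase to glycogen, fell (-0.39, adjusted p = 0.00103 by edgeR), while the less abundant Prkab1, the other such subunit, rose (0.30). Of 6 genes of glucose entry 2 rose: Tbc1d4, which holds the glucose transporter inside the cell until insulin acts (51.8 to 89.7 CPM at 8 months, 81.7 to 191 at 28 months, 1.06, adjusted p = 1.89e-06), and Slc2a1, whose rise of 0.46 (adjusted p = 0.00881) was lost in 11 of the 17 fits that left out 1 mouse.

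Most enzymes that use the released glucose units fell. Of 11 genes listed for glycolysis after glucose 6-phosphate, 7 fell and 0 rose, with a median log2 fold change of -0.34 beside 0.01 over all genes. Among the 11 is Fbp2, the muscle fructose bisphosphatase, which acts against the direction of glycolysis. It did not pass (mean CPM of 56.6 at 8 months and 74.2 at 28 months). Pgam2, the muscle phosphoglycerate mutase, had the largest fall (1234 to 1826 CPM at 8 months, 292 to 1466 at 28 months, -0.90, adjusted p = 4.63e-05 by edgeR), followed by Tpi1, triose phosphate isomerase (-0.58, adjusted p = 0.000364). With limma on log2(TPM + 1) 7 fell and 1 rose, and with the fit restricted to the 2 ages 3 fell and 0 rose. Without replicate 2 of 28 months 7 fell and 0 rose, with a median log2 fold change of -0.25. Of all genes 18.7% fell in this contrast. Against 22 months 1 of the 11 fell, near the 11.5% of all genes that did.

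**Figure D5:**
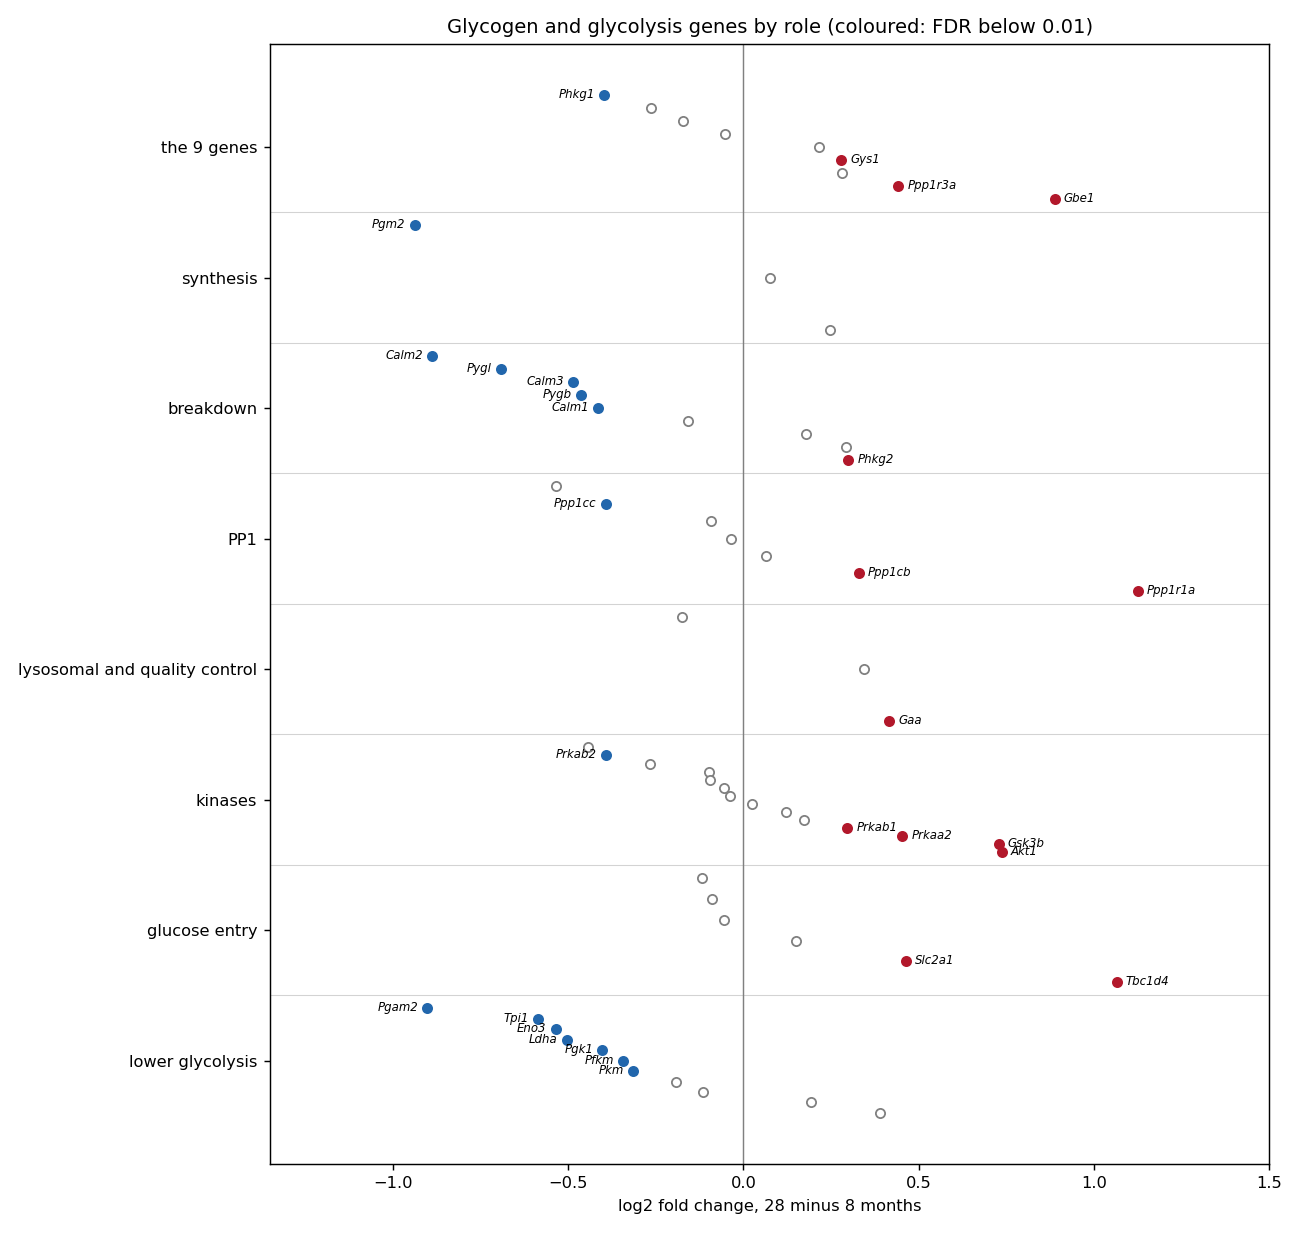
Log2 fold change between 28 and 8 months (x axis) of the 9 genes and of the 53 other tested genes, by role (y axis), with genes past FDR 0.01 filled and named, red for higher and blue for lower. The phosphoglucomutase listed as Pgm2 lies at -0.94 and glycolysis has 7 filled points, all to the left of 0.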

How the data were processed

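Messenger RNA of gastrocnemius muscle was sequenced in 50 mice, 1 library each. The authors trimmed reads with Cutadapt 1.9.1 and assigned them with kallisto 0.43.1 to protein-coding Ensembl transcripts of GRCm38, dividing a read evenly among the transcripts it fits. The deposited count values are sums over the transcripts of a gene and are whole numbers in the file. The deposited TPM values were made by the authors by scaling for transcript length and library size.

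Here, counts were tested with edgeR 4.0.16 (R 4.3.3; TMM factors, quasi-likelihood test, a CPM of 1 or more required in 8 or more mice, 1 fit over the 6 ages, Benjamini-Hochberg adjustment over 12586 genes, FDR 0.01). Mice were grouped by the age in their labels. Levels and ratios at 28 months without replicate 2 were added after seeing the data. DESeq2 1.42.0 and limma 3.58.1 on log2(TPM + 1) were among the alternatives. log2 CPM used a prior count of 2. Relations between genes were tested by permutation in Python 3.11.15. The edgeR test was tried on simulated counts with the same spread for every gene at every age. The permutation test was tried on simulated pairs permuted over all mice, not within ages. These settings differ from those of the data, so the trials do not vouch for the p-values given here. Total counts per mouse lay between 13607229 and 21267375. Intervals are 95% intervals of the edgeR coefficients. Nothing states that mice of one age came from separate litters, and p-values measure the spread between these mice.

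The 9 genes, the 7 wider lists and the marker lists were chosen with earlier results of these data known. In the wider lists the genes named were the up to 2 largest rises and 2 largest falls of each list past FDR 0.01, and for each member the 2 most correlated genes. Phkb, Fbp2, Gsk3a and Prkab1 were named after their values were seen. Some genes of the wider lists are not reported here. Ppp1r3d, Ppp1r3e and Nhlrc1 were not analysed here, and Gys2 and Ppp1r3g did not pass the filter. Promoter letters came from RefSeq (GRCm38.p6) and gene positions from GENCODE vM21 on GRCm38, while the reads were assigned to another release of the same build. All 9 symbols matched.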

Additional observations from a re-analysis of the deposited data

Results flagged for a closer look

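Each of the 9 genes was checked at each of the 6 ages for a mouse that lies far from the others, 54 groups in all, and 2 groups held one, both in Gbe1. By chance about 1 group in 20 is marked in this way. Replicate 1 of 26 months had 128 CPM of Gbe1, and the next mouse of its age had 101, a gap of 0.4998 of the range. Replicate 2 of 28 months had 200.4 CPM, and the next mouse had 133, a gap of 0.524 of the range. In the second mouse Phkg1 (198 CPM) and Pygm (4902 CPM) were the lowest of all 50 mice and Ugp2 (1860 CPM) the highest. The same mouse had the lowest sum of fast IIB fiber genes of all 50 mice (107559 TPM) and the highest sum of genes of denervated or regenerating fibers (621 TPM, the next being 620.4). Its macrophage markers summed to 774 TPM, against at most 436 in the other mice of 28 months. The part of these in the values was not tested.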

How the results depend on the processing

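Between 28 and 8 months the number of members past FDR 0.01, 4, stayed within 1.5 times under every alternative tried, 3 to 5 with each mouse left out in turn. Between 28 and 22 months it was 3, and 5 at FDR 0.05, 1 with only the 2 ages in the fit and 2 to 4 with each mouse left out in turn; the cause was not tested. The log2 difference of Ppp1r3c between 28 and 8 months changed sign, to 0.0885 with limma on log2(TPM + 1) and 0.0890 on log2(TPM + 0.1), and ranged from -0.21 to 0.0834 with each mouse left out. Single genes were run under the alternatives only for the members and for genes of the wider lists past FDR 0.01 between 28 and 8 months. Among these no other fold change changed sign. Phkb, Gsk3a, Fbp2 and most of the genes nearest to a member were not run in this way. The replicate numbers were not treated as pairs in the main fit. Same-numbered mice correlated at -0.16 to 0.161 for 28 and 8 months and at -0.222 to 0.324 for 28 and 22 months. For 26 and 8 months all 8 values were positive (0.017 to 0.287), and for 28 and 26 months they ran from -0.379 to 0.376. With the replicate block 4 members passed between 28 and 8 months. Between 28 and 22 months 4 passed, where Ugp2 was added (0.38, adjusted p = 0.00427 by edgeR). Phkg1 lost its call between 28 and 22 months also with no filter on low counts (adjusted p = 0.015 by edgeR). The number of related pairs was 12, 13 without replicate 2 of 28 months and 12 with log2(TPM + 1). The diet history of the mice of 8 and 18 months, and the survival of the oldest, cannot be told apart from age in the contrasts with 8 months. Counts were deep enough that the spread between mice, not depth, limits what can be seen, most of all in Ppp1r3c.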
